A study of Mus musculus with 3 samples.

Results

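The hydrolases of the intestinal brush border were followed through 10 genes: the disaccharidase genes Lct, Sis, Treh and Mgam, the peptidase genes Anpep, Enpep, Dpp4, Mep1a and Mep1b, and the phosphatase gene Alpi. They were chosen by function and found by gene symbol in the array's annotation, and all 10 were measured, among 20738 named genes in all. Gene expression was compared between whole proximal jejunum (the part of the small intestine that follows the duodenum) of mice lacking Sox4 and of wild-type mice on 3 Agilent 2-colour arrays. According to the labels, each array held total RNA of a different knockout mouse in Cy5 against wild-type RNA in Cy3. The sample titles name vilCre, a Cre recombinase driven by the villin promoter, which is active in the intestinal epithelium and not in the other cells of whole jejunum. The age and sex of the mice, the floxed allele and whether the wild-type RNA was pooled were not stated in the labels used here. The question of the series is what the transcription factor Sox4 does for proliferation, differentiation and DNA methylation in this epithelium, and the hydrolases are products of its differentiated absorptive cells.

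Brush border hydrolases are enzymes anchored in the microvillus membrane of enterocytes, where they complete the digestion of sugars and peptides at the surface that absorbs them. Their genes are switched on as cells leave the crypt and move up the villus, under transcription factors of the HNF1, HNF4, CDX and GATA families. Their levels also differ along the gut and with age, with lactase prominent before weaning and sucrase-isomaltase after it.

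All values below are log2 ratios of the knockout channel over the wild-type channel, where 0 means equal signal. The deposited table states neither the direction nor the log base of its ratios. The direction is likely, from the dyes in the labels and the usual order of Cy5 over Cy3, and every sign below would be reversed for a table of Cy3 over Cy5. Ratios carry no levels, so the labelled tissue could not be checked against its markers. Sox4 itself had ratios of -0.66, 0.18 and -0.46 on arrays 1, 2 and 3 (mean -0.31 ± 0.44, SD, n = 3, adjusted p = 0.332). The library labelled Sox4 knockout on array 2 thus did not lie below wild type for the mean of the 3 Sox4 features. These features disagreed. Feature 53932 was below 0 on every array (-1.21, -0.72 and -0.93). Feature 32792, annotated to the same transcript, had 0.06, 1.23 and -0.02, and feature 35668 had -0.82, 0.03 and -0.43. Of the 20738 genes, 68 passed limma's test at an adjusted p of 0.05, 22 higher and 46 lower in the knockout. The sex-linked genes Xist (1.71 ± 0.18, adjusted p = 0.0208) and Eif2s3y (-7.28 ± 0.25, adjusted p = 0.000252) differed on all 3 arrays, so an effect of sex and one of genotype cannot be told apart in any value below.

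None of the 10 hydrolase genes passed limma's test over all genes, where 0.328% of all genes passed. This does not show that they were unchanged. On simulated data the test called 0% of changes of 0.5 and 26% of changes of 1 on the log2 scale. The smallest adjusted p was that of Anpep, at 0.0625. By unadjusted p-values, Anpep was the 1 member under 0.05, while 26.3% of all genes lay under 0.05, 12% higher and 14.3% lower. The members did not move as a block. Their means ran from -0.47 for Lct to 0.83 for Anpep, 4 above 0 and 6 below, beside 46.4% of all genes above 0. The median of the 10 means was -0.05, beside -0.03 for all genes. On arrays 1, 2 and 3 the median of the members was 0.12, -0.04 and -0.12, and 8, 4 and 4 of them lay above 0. Anpep alone was above 0 on all 3 arrays, where 23.2% of all genes were, and Mep1a alone was below 0 on all 3, where 27.3% of all genes were. That is 2 of 10 members with 1 sign throughout, against 50.6% of all genes. The other 8 members had ratios on both sides of 0.

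**Figure D1:**
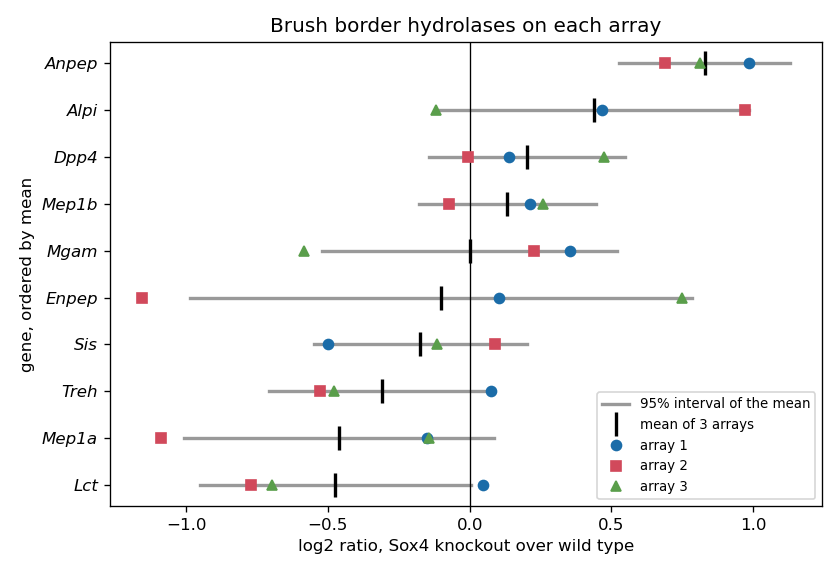
Log2 ratio of knockout over wild type (horizontal axis) for each of the 10 hydrolase genes (vertical axis, ordered by mean), with 1 point per array, a tick for the mean of 3 arrays and a grey bar for the 95% interval from limma. Anpep sits between 0.69 and 0.985 on the 3 arrays with an interval above 0, and the intervals of the other 9 genes include 0.

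Anpep encodes aminopeptidase N, a zinc enzyme that removes neutral residues from the amino end of peptides. Its ratios were 0.985, 0.69 and 0.81 on arrays 1, 2 and 3. All 3 were above 0 and close to each other, with a mean of 0.83 ± 0.15 (1.78-fold, 95% interval 0.53 to 1.13, unadjusted p = 0.000659, adjusted p = 0.0625, n = 3). The mean was at the 98.8th percentile of all genes, and the gene ranked 216 among the 20738 by its p. Its spread over the arrays was at the 30.7th percentile of all SDs. With each array centred on the reference genes described below, Anpep had a smaller mean of 0.59 but passed (adjusted p = 0.0397), in a setting where 14.6% of all genes were called.

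Enpep encodes aminopeptidase A, of the same family of zinc peptidases, which removes acidic residues and cleaves angiotensin II. Its ratios were 0.10, -1.16 and 0.75 on arrays 1, 2 and 3. Array 2 was low and array 3 high, and the SD of 0.97 was at the 98.7th percentile of all genes. The mean of -0.10 had a 95% interval from -0.99 to 0.78 (adjusted p = 0.873, n = 3). Without array 2 the mean was 0.43 (adjusted p = 0.291), so its direction rested on that array. The difference of Anpep minus Enpep was 0.88, 1.84 and 0.06 on the 3 arrays (mean 0.93 ± 0.89). Anpep lay above Enpep on every array, but by an amount that spread about as widely as its mean.

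The promoters of 4 members are printed to show how these genes differ upstream: Anpep, steady and above 0, Enpep, the member with the largest spread, Lct, the member with the lowest mean, and Sis, for which HNF1 and CDX factors are textbook regulators. Each is the 250 bases before the RefSeq gene start (build GRCm38.p6), 5′ to 3′ on the gene's strand. Capitals mark exact matches, on either strand, to 4 short motifs. The motif searched for CDX factors was ATAAA, which also occurs in TATA boxes. For GATA factors it was AGATAA, which can overlap the former. For HNF1 it was GTTAAT, part of its palindromic site, and for HNF4 factors it was CAAAGT.
Anpep, chr7:79848211-79848460, minus strand: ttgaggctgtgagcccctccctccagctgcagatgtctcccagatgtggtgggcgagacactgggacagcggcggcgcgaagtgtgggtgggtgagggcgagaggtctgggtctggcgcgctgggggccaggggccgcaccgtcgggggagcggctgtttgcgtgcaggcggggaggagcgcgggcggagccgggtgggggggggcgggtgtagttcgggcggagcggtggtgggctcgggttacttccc
Enpep, chr3:129332750-129332999, minus strand: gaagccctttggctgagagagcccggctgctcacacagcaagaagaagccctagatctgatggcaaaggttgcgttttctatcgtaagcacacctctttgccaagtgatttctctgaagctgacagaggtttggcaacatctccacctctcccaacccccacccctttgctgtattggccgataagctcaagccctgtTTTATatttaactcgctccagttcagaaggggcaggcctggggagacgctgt
Lct, chr1:128328319-128328568, minus strand: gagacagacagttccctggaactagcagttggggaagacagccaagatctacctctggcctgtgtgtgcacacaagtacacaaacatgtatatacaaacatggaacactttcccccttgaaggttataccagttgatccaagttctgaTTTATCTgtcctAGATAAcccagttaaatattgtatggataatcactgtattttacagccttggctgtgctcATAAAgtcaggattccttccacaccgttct
Sis, chr3:72967864-72968113, minus strand: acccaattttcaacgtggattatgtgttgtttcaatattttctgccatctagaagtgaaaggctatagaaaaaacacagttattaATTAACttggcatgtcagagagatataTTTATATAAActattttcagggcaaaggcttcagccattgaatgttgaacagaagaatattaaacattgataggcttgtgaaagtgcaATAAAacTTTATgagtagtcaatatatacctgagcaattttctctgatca

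The Anpep window held no match to the 4 motifs and had a GC content of 72.8%, at the 94th percentile of 32851 promoter windows, whose median was 52.4%. The Sis window had a GC content of 31.6%, at the 2.16th percentile, with 4 CDX matches and 1 HNF1 match. The Lct window (42.8% GC) held 2 CDX and 2 GATA matches, with 1 overlap between them, and the Enpep window (52.4% GC) held 1 CDX match. Windows were available here for 9 members, of which 6 held a CDX match, 3 a GATA match, 1 an HNF1 match and 3 an HNF4 match. Over all windows the shares were, in the same order, 37.3%, 9.99%, 6.43% and 12.6%. A match describes letters only, and neither a match nor the lack of one shows whether the factor binds. Only the RefSeq gene start was read, and whether jejunal cells start these genes there was not examined.

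Dpp4 encodes dipeptidyl peptidase 4, which removes dipeptides after proline or alanine and inactivates incretin hormones. Its ratios were 0.14, -0.007 and 0.47 on arrays 1, 2 and 3, with a mean of 0.20 ± 0.25 (95% interval -0.14 to 0.55, adjusted p = 0.387, n = 3). Array 2 was level with wild type and the other arrays were above it. Centred on the reference genes, the mean of Dpp4 turned to -0.04.

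The meprin genes Mep1a and Mep1b encode the alpha and beta subunits of a metalloproteinase that cleaves peptides and mucus proteins. Mep1a had ratios of -0.15, -1.09 and -0.14, below 0 on all 3 arrays but much lower on array 2 than on the others. Its mean was -0.46 ± 0.54 (95% interval -1.01 to 0.09, adjusted p = 0.243, n = 3), and without array 2 it was -0.15. Mep1b had ratios of 0.21, -0.07 and 0.26, with a mean of 0.13 ± 0.18 (95% interval -0.18 to 0.45, adjusted p = 0.527, n = 3). These lay close to wild type, and the mean turned to -0.11 with arrays centred on the reference genes. Mep1b minus Mep1a was 0.36, 1.01 and 0.40 on the 3 arrays (mean 0.59 ± 0.37), and the ratios of these subunits did not overlap. This difference was not tested.

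Array 2 was the lowest of the 3 arrays for all 5 peptidase genes, an arrangement picked after the values were seen, while 37.9% of all genes were lowest there. The median of the peptidases was 0.14, -0.07 and 0.47 on arrays 1, 2 and 3.

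The disaccharidase genes had lower medians, at 0.06, -0.22 and -0.53 on arrays 1, 2 and 3, and no disaccharidase passed the test. The median on array 3 rests in part on Mgam, whose features were 0.315 and -1.48 on that array. Lct encodes lactase, which splits milk sugar. It had ratios of 0.05, -0.77 and -0.70, level with wild type on array 1 and below it on the others. Its mean of -0.47 ± 0.45 was the lowest of the members (1.39-fold lower, adjusted p = 0.193, n = 3), and its 95% interval reached from -0.95 to 0.0044. Treh, for the enzyme that splits trehalose, a sugar of fungi and insects, was arranged in the same way, with 0.075, -0.53 and -0.48 (mean -0.31 ± 0.33, 95% interval -0.71 to 0.09, adjusted p = 0.270, n = 3). For both genes the 1 array near 0 was array 1.

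Sis encodes sucrase-isomaltase, which splits table sugar and the branches of starch. Its ratios were -0.50, 0.09 and -0.11 on arrays 1, 2 and 3, so its lowest array was the one on which Lct and Treh were highest. The mean was -0.17 ± 0.30 (95% interval -0.55 to 0.20, adjusted p = 0.489, n = 3). Sis minus Lct was -0.55, 0.86 and 0.58, so the order of these disaccharidases turned between arrays.

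Mgam encodes maltase-glucoamylase, a starch-digesting relative of sucrase-isomaltase, and was the 1 member with more than 1 feature. Its 2 features, annotated to the same transcript, disagreed. Feature 29464 had ratios of 0.44, 0.63 and 0.32, above 0 on every array (mean 0.46 ± 0.16, adjusted p = 0.106 over features, n = 3). Feature 6063 had 0.265, -0.17 and -1.48 (mean -0.46 ± 0.91, adjusted p = 0.398 over features), with array 3 far below the others. The gene mean of -0.00033 ± 0.51 (95% interval -0.52 to 0.52) is thus an average of features that point opposite ways, not a measurement near 0. Where each feature lies in the transcript is not used here, and the other 9 members have 1 feature each and no such check.

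Alpi encodes an intestinal alkaline phosphatase, which removes phosphate from nutrients and from bacterial lipopolysaccharide. It had ratios of 0.47, 0.97 and -0.12 on arrays 1, 2 and 3, high on array 2 and just below wild type on array 3. The mean of 0.44 ± 0.55 had a 95% interval from -0.11 to 0.99 (adjusted p = 0.260, n = 3). The RefSeq gene order places Alpi between the protein-coding genes Alppl2 and Akp3, which encode related alkaline phosphatases. Akp3 had -0.53, 0.78 and -0.835, and Alppl2 had -0.04, 0.77 and -0.38, neither of which passed (adjusted p = 0.718 and 0.771). All 3 neighbours were highest on array 2 and lowest on array 3. They are similar in sequence, so signal shared between their features cannot be told apart from shared expression.

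**Figure D2:**
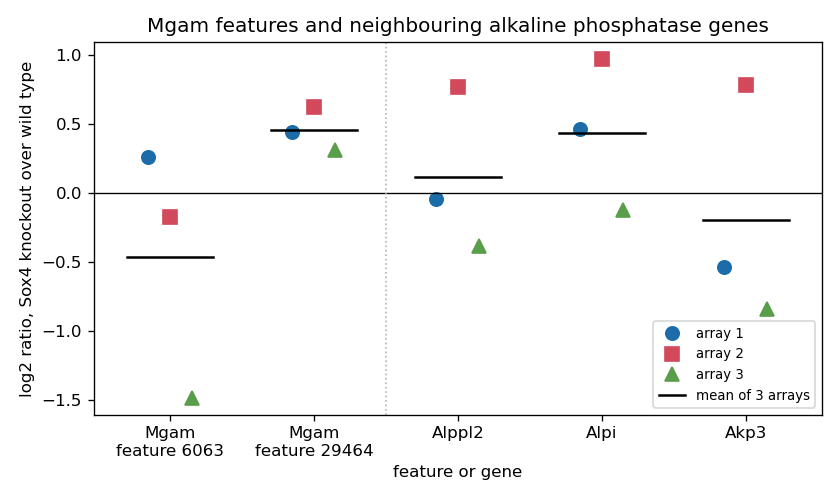
Log2 ratio of knockout over wild type (vertical axis) for the 2 Mgam features and for the alkaline phosphatase genes Alppl2, Alpi and Akp3 (horizontal axis), with 1 point per array and a line for the mean of 3 arrays. The Mgam features average -0.46 and 0.46, and each phosphatase gene is highest on array 2 and lowest on array 3.

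In the order of means, Anpep was followed by Alpi, Dpp4, Mep1b, Mgam, Enpep, Sis, Treh, Mep1a and Lct. No neighbours in this order were apart by more than their spread, since the ratios on the 3 arrays overlapped for each. Among all 45 pairs of members, 10 had ratios that did not overlap, and Anpep was the higher gene in 7 of these. In the other 3 pairs Mep1a lay below Alpi, Dpp4 or Mep1b. The share of such pairs over all genes was not computed, so these counts only describe the members and do not set them apart. The SD over arrays was above the median of all genes (0.22) for 8 of 10 members, with a median of 0.39 among them. Intervals of the member means were 0.60 to 1.77 wide on the log2 scale.

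Other enzymes of the enterocyte's apical membrane were not called either, with none of 18 measured genes past the threshold. By unadjusted p, 8 of them lay under 0.05, beside 26.3% of all genes. Of these, 2 were higher and 6 lower, beside 12% and 14.3% of all genes. The list median was -0.17, with 5 means above 0 and 13 below, beside 46.4% of all genes above 0. On all 3 arrays, 2 genes were above 0 and 8 below, beside 23.2% and 27.3% of all genes. The genes with the smallest p were Tmprss15, for enteropeptidase, which activates trypsin (-0.91 ± 0.48, adjusted p = 0.0828), and Ace, for angiotensin-converting enzyme (0.80 ± 0.44, adjusted p = 0.0881). Enpp7, for alkaline sphingomyelinase, had 0.56 ± 0.42 and Cpm, a carboxypeptidase gene, -0.56 ± 0.42.

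Genes of microvillus structure, the actin bundles, motors and adhesion proteins that carry the hydrolases, had a higher median of 0.14 over 22 genes, between 0.09 and 0.17 on the arrays. None passed over all genes, 7 were higher and 1 lower at an unadjusted p under 0.05, beside 12% and 14.3% of all genes, and 14 had means above 0, beside 46.4% of all genes. Myo1a, for the myosin that ties the actin core to the membrane, had 0.82, 0.84 and 0.71 on arrays 1, 2 and 3 (mean 0.79 ± 0.07, adjusted p = 0.0621). Its mean was close to that of Anpep, and its SD was smaller. Vil1, for the actin bundler villin, had 0.48 ± 0.14 (adjusted p = 0.0931) and Ush1c, for the adhesion scaffold harmonin, 0.47 ± 0.17. Cobl, an actin nucleator gene, had -0.69 ± 0.36, so this list too held values on both sides of 0.

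Among 14 measured transcription factor genes of enterocytes none passed, and 3 were higher and 1 lower at an unadjusted p under 0.05, 4 of 14 beside 26.3% of all genes, a share near the background. Elf3, an epithelial ETS factor gene, had 0.88 ± 0.08 (adjusted p = 0.0543), Klf5 0.64 ± 0.21, Gata4, a factor of proximal intestine, 0.62 ± 0.12, and Klf4 -0.73 ± 0.36. Of the other measured genes in this list for factors whose motifs were searched above, Cdx2 had 0.13 ± 0.20, Cdx1 -0.09 ± 0.47, Hnf4a 0.05 ± 0.15, Hnf4g -0.34 ± 0.40, Gata5 -0.0047 ± 0.25 and Gata6 0.09 ± 0.16, chosen after the values of the list were seen. Peptidases inside the cell had none of 12 genes past the threshold and a median of -0.08. The lowest of these was Dpep1 (-0.47 ± 0.17, adjusted p = 0.0998), whose product is itself a membrane dipeptidase. Dpp3 (0.25 ± 0.10), Tpp1 (-0.28 ± 0.27) and Pepd (-0.28 ± 0.28) followed by p.

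**Figure D3:**
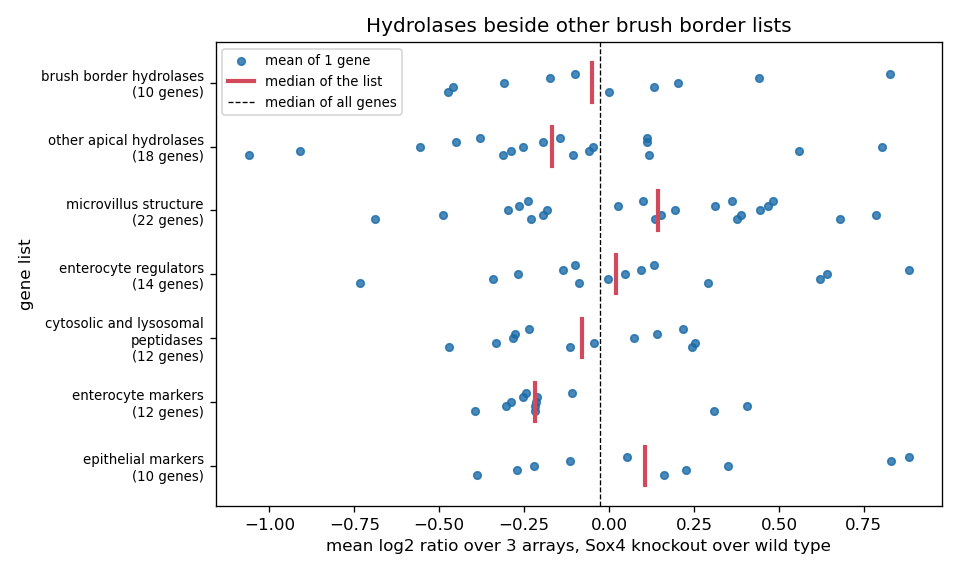
Mean log2 ratio over 3 arrays (horizontal axis) of each gene in 7 lists (vertical axis), with a red bar for each list's median and a dashed line for the median of all genes. The hydrolase median of -0.05 lies beside that of all genes, microvillus genes are at 0.14 and enterocyte markers at -0.22.

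Whole jejunum holds other cells, and fewer cells of a type cannot be told apart from less RNA per cell. Other markers of absorptive cells had a median of -0.22 over 12 genes, with 0.005, -0.23 and -0.34 on arrays 1, 2 and 3. Means were above 0 for 2 of them and below 0 for 10, beside 46.4% of all genes above 0. None passed the threshold, and 1 was higher and 0 lower at an unadjusted p under 0.05, beside 12% and 14.3% of all genes. Apoa1 (0.41 ± 0.30), Slc5a1 (0.31 ± 0.28) and Fabp2 (-0.30 ± 0.28) had the smallest p among them. Epithelial markers had a median of 0.11 over 10 genes, with Krt19 at 0.83 ± 0.21 and Tspan8 at -0.39 ± 0.19. Crypt and proliferation markers had 0.38 over 7 genes, with Top2a at 0.61 ± 0.25, Olfm4 at 0.61 ± 0.32 and Ascl2 at 0.38 ± 0.04. None of these 7 genes passed the threshold, and 4 were higher and 1 lower at an unadjusted p under 0.05, beside 12% and 14.3% of all genes. The lower gene was the stem cell marker gene Lgr5 (-0.43 ± 0.34), chosen after its value was seen.

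Anpep, Enpep and Dpp4 are also expressed outside the epithelium, in stromal, endothelial or immune cells. Stromal and endothelial markers had medians of -0.55, 0.29 and -0.02 on arrays 1, 2 and 3, and immune markers 0.15, 0.32 and 0.09, with none of 10 genes past the threshold in either list. Smooth muscle markers (8 genes) had -0.31, 0.35 and -0.47. Array 2 was thus the highest array for these 3 lists. It was also the highest for the epithelial markers, at 0.05, 0.17 and 0.11 on arrays 1, 2 and 3. Of the 10 members, 7 were lowest on array 2, among them Enpep and Mep1a, and 2, Alpi and Sis, were highest there. Over all genes the shares were 37.9% lowest and 34% highest. Adipocyte markers were lower, with 5 of 7 genes past the threshold (Adipoq -4.69 ± 0.41, Cfd -5.95 ± 0.65), as were 2 of 5 blood genes (Hbb-bs -1.23 ± 0.19 and Hbb-bt -1.59 ± 0.39). Pancreatic acinar markers had a median of -0.90 over 10 genes with none past it. The part of these cells in the hydrolase ratios was not tested.

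Reference genes, often taken as constant, had medians of 0.31, 0.13 and 0.28 on arrays 1, 2 and 3, above the centre of the arrays. Setting each array to their median lowers every mean by 0.24, and setting it to the epithelial markers lowers it by 0.11. Under the first, 2 members, Anpep and Alpi, kept means above 0, and the median of the members was -0.29. Under the second the members above 0 stayed 4 and no member passed. Relative to the shift, the order of the members is the same by construction, and Anpep stayed highest.

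**Figure D4:**
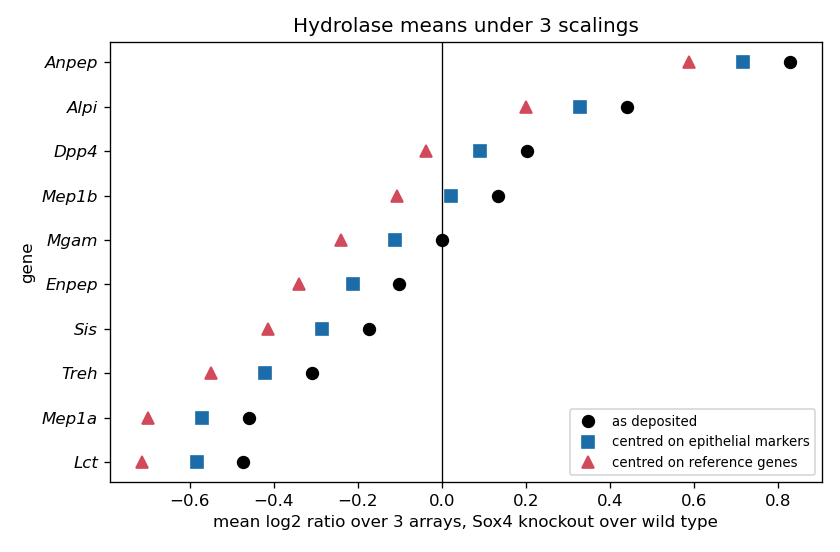
Mean log2 ratio over 3 arrays (horizontal axis) of each hydrolase gene (vertical axis) as deposited, centred on the epithelial markers and centred on the reference genes. Anpep goes from 0.83 to 0.59 across these scalings and stays above 0, while Dpp4 and Mep1b cross to -0.04 and -0.11 when centred on the reference genes.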

How the data were processed

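The value table deposited by the authors holds 1 log2 ratio of the 2 channels per feature and array, for 62976 features and 3 arrays. How the authors corrected the background, normalized and filtered is not given in their labels. Base 2 is the usual unit, base 10 would exceed a scanner's range (values from -7.44 to 5.62), and natural logarithms, which would make each fold larger, are not excluded. Array medians were 0.007, 0.003 and 0.011, so values were centred before deposit. Arrays correlated at Pearson's r of 0.453, 0.514 and 0.438 over all features. Dim features could not be filtered without intensities, and precision is limited by the number of arrays.

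The platform's annotation and a RefSeq table of GRCm38.p6 named 31465 features (29036 through their accession) and left 31511 unnamed here. Averaging features per gene gave 20738 genes. Each gene's mean was tested against 0 (limma 3.58.1, R 4.3.3, eBayes, two-sided, Benjamini-Hochberg over all genes, threshold 0.05). Errors are SDs and intervals are limma's. The 3 arrays form 1 group on which dye cannot be told apart from genotype. Whether the SDs and intervals hold any spread among wild-type mice is unknown, since pooling of the wild-type RNA was not stated. Scripts were tested on simulated data. Figures used Python 3.11.15 with matplotlib 3.10.9.

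The members and lists were chosen with earlier results of these data known. Named genes are the members, Sox4, and, in each list, genes past the threshold and up to 4 more by smallest p (3 in all for cell markers). Others are marked or are neighbours of a member. Alternatives covered the feature summary, scaling, variance model and each array left out.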

Additional observations from a re-analysis of the deposited data

How the results depend on the processing

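In 10 of 11 alternatives no hydrolase gene passed, and centring on the reference genes gave 1, Anpep, with 2 members above 0 and a median of -0.29. Over all alternatives the adjusted p of Anpep ran from 0.0397 to 0.240 and its mean from 0.59 to 0.90. Genes passing over all genes came to 3036 when centred on the reference genes (144 higher, 2892 lower), 646 when centred on the epithelial markers (126 higher, 520 lower), 1 without moderation of the variance, and 4 to 66 when 1 array was left out (10 without array 1, 66 without array 2, 4 without array 3), against 68 (22 higher, 46 lower). The sign turned for Dpp4 (-0.038) and Mep1b (-0.11) centred on the reference genes, for Mgam (0.019) centred on the median of all named genes and (0.46) by feature 29464 alone, and on leaving out 1 array for Mgam (-0.18 to 0.29) and Enpep (-0.53 to 0.43). Alpi, Lct, Sis, Treh, Mep1a and Anpep kept their direction in the 11 alternatives, but leaving out 1 array moved the uncalled means of Alpi (0.17 to 0.72), Lct (-0.735 to -0.325), Sis (-0.31 to -0.0115), Treh (-0.50 to -0.20), Mep1a (-0.62 to -0.15), Dpp4 (0.07 to 0.31) and Mep1b (0.07 to 0.24) by over 1.5 times. The cause of these changes was not tested. Each ratio sets knockout RNA against wild-type RNA on the same array, so the test of a mean ratio against 0 is already a comparison within arrays. Without intensities, how far each feature lay above background is unknown.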

Other observations

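Genes that mark other positions or ages of the small intestine were also measured. In the distal list of 5 genes, Pyy, a hormone gene of the lower gut, fell (-1.43 ± 0.20, adjusted p = 0.0405). The galectin gene Lgals2 (0.54 ± 0.08) and the ileal bile acid transporter gene Slc10a2 (-0.51 ± 0.29) did not pass. Of 4 genes of the endocytic system of suckling ileum none passed. Among these Cubn, for the receptor cubilin, had -0.53, -2.17 and -1.58 on arrays 1, 2 and 3 (mean -1.43 ± 0.83, adjusted p = 0.0822), with all arrays below 0. Array 1 was nearest to 0 for Cubn. Dab2 had -0.43 ± 0.27 and Amn -0.15 ± 0.27. The remaining gene, Lrp2, went the other way, with 0.39, -0.27 and 0.37 (mean 0.16 ± 0.38), so the list did not move as a block.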
